A study of Mus musculus with 4 samples.

Results

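The genes described here are those of cholesterol and fatty acid synthesis, measured by RNA-seq in mouse E14 embryonic stem cells that carried an shRNA against the endogenous retrovirus MERVL or a random shRNA. A fixed list of 32 gene symbols from the pathway of the sterol regulatory element-binding proteins (SREBPs) was matched to the Ensembl genes of the count table. Of the 32 symbols, 31 matched 1 of the 43496 genes there, 21 of 22 in the sterol branch and 10 of 10 in the fatty acid branch. Dhcr7 was not analysed here. All 31 members passed the filter on low counts, so no member was lost to it.

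SREBPs are membrane-bound transcription factors that SCAP escorts out of the endoplasmic reticulum when sterols are scarce. Proteases in the Golgi then release their active domain, which enters the nucleus and acts with NF-Y and Sp1 at promoters of lipid synthesis genes. SREBP2, encoded by Srebf2, is best known for sterol synthesis and cholesterol uptake, and SREBP1, encoded by Srebf1, for fatty acid synthesis.

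The MERVL shRNA group and the random shRNA group had 2 libraries each. MERVL is a retrovirus family that is transcribed in the early mouse embryo, and the labels also call it MuERVL. The genotype field reads MERVL knocked down for the MERVL shRNA libraries and wild type for the random shRNA libraries, and the strain field reads 12910la for both. Cells were transfected with 1000 ng of a pSuper puro plasmid, selected from 24 h later with puromycin at 1 µg/ml for 4 days, and grown on gelatin with 15% serum and LIF at 10 ng/ml. What RNA sequence each shRNA targets is not stated in the labels, and selection acted on a pool of transfected cells. The labels do not say that replicates came from separate cultures, so p-values measure the spread between these libraries only, which may be technical.

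The libraries held 16067854 and 14570056 estimated counts with MERVL shRNA, and 15496921 and 11628887 with random shRNA. The targeted retrovirus, summed over all its copies, took 1152 and 555 CPM (counts scaled to library size) with MERVL shRNA, against 4716 and 1471 CPM with random shRNA. Random shRNA replicate 1 stood apart: its summed level of 7 genes of the 2-cell-like state was 1457 CPM, against 401 CPM in random shRNA replicate 2. The MERVL shRNA libraries had 302 and 168 CPM of these genes. The 8 pluripotency markers summed to 8674 and 9423 CPM with MERVL shRNA and 7413 and 8507 CPM with random shRNA. With MERVL shRNA the summed markers were at 109 to 121 CPM for primitive endoderm, 44.0 to 47.0 for trophectoderm, 106 to 122 for neural cells and 15.3 to 18.5 for fibroblasts. With random shRNA they were at 95.0 to 104, 43.4 to 73.3, 98.2 to 166 and 30.9 to 41.4 CPM in the same order. Among the fibroblast markers Col3a1, Postn, Dcn and Lum were at 0 in every library, as was Olig2 among the neural ones. In RNA from whole cultures, fewer cells of a type and less RNA per cell cannot be told apart.

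The first comparison asked how the 31 genes differed between MERVL shRNA and random shRNA cells. None of them passed the edgeR quasi-likelihood test at an adjusted p of 0.05. Their adjusted p ran from 0.346 for Fads1 to 0.976 for Fads2, where 0.00612% of all 16353 features tested were called higher and 0.0% lower. An unadjusted p under 0.05 was reached by 1 member, Fads1, on the higher side, where 4.87% of genes lay on the higher side and 6.35% on the lower. DESeq2 called no member, where 0.397% of features were called higher and 0.96% lower, and limma-voom called neither a member nor any other feature. With no filter on low counts edgeR called 1 member, Scd1, higher, where 0.991% of features were called higher and 3.76% lower. The sterol branch had a median log2 fold change of 0.17, with 15 members positive and 6 negative, and the fatty acid branch one of 0.02, with 6 positive and 4 negative. Over all 15735 genes tested the median was 0.00.

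What the libraries showed instead was a wide gap inside the random shRNA pair. In the sterol branch the summed level was 1822 and 1839 CPM in the MERVL shRNA libraries, against 1239.8 and 2055 CPM in random shRNA replicates 1 and 2. Random shRNA replicate 1 was thus the low library for the sterol branch, replicate 2 was the high one, and both MERVL shRNA libraries lay between them. In the fatty acid branch the sums were 1806 and 1855 CPM with MERVL shRNA, against 1578 and 1643 CPM with random shRNA, but Scd2 decided that order. Without Scd2, a sum taken after the values were seen, they were 1223 and 1209.6 CPM with MERVL shRNA, against 1228 and 1128 CPM with random shRNA, and the groups overlapped. The plot of each gene's level by library shows the single genes.

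**Figure D1:**
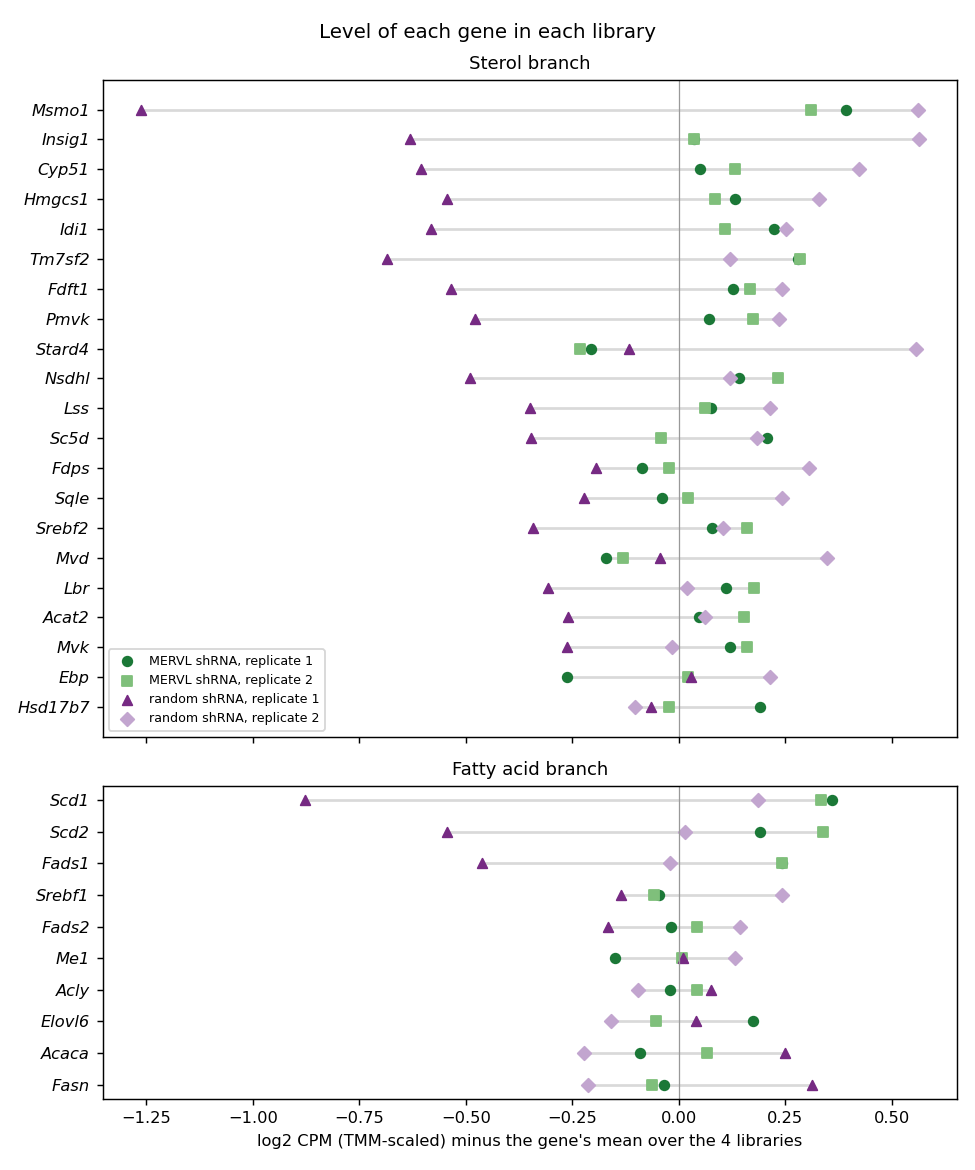
Level of each of the 31 genes in each of the 4 libraries, as log2 CPM minus the mean of that gene over the libraries, with the sterol branch above and the fatty acid branch below, ordered by the gap between the random shRNA libraries. Circles and squares are MERVL shRNA replicates 1 and 2, triangles and diamonds random shRNA replicates 1 and 2. In most sterol rows the triangle is leftmost and both MERVL shRNA points lie close together.

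Both MERVL shRNA libraries lay between the random shRNA libraries for 10 of the 21 sterol genes and 5 of the 10 fatty acid genes, where 25.3% of all genes did. Both lay above both random shRNA libraries for 5 sterol genes (Mvk, Tm7sf2, Lbr, Nsdhl and Hsd17b7) and 3 fatty acid genes (Scd1, Scd2 and Fads1), where 23.0% of all genes did. Both lay below for 3 sterol genes (Mvd, Ebp and Stard4) and for Me1 alone in the fatty acid branch, where 21.8% of all genes did. The remaining 3 sterol genes, Acat2, Sc5d and Srebf2, and the remaining fatty acid gene, Elovl6, had a MERVL shRNA library on either side of a random shRNA library.

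Promoter sequence is shown for the members where the random shRNA gap was past 1.5-fold, plus Fasn, the member with the widest gap in the other direction, as far as the sequence lay outside every annotated gene. Each is the stretch of 250 bases before the transcription start given by RefSeq (GRCm38.p6), and capitals mark the NF-Y box CCAAT in either orientation and the sterol regulatory element letters TCACNCCAC. Hmgcs1 (chr13:119690101-119690350, plus strand) holds 3 NF-Y boxes and the sterol element, Pmvk (chr3:89454291-89454540, plus strand) holds 1 NF-Y box, and Fasn (chr11:120824548-120824797, minus strand) holds 3, of which a pair overlap in a palindrome.
Hmgcs1: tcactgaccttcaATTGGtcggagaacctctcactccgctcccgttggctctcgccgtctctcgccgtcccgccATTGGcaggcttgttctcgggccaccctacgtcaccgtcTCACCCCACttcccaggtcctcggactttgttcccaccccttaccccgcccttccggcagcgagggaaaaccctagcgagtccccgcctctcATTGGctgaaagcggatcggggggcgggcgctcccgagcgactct
Pmvk: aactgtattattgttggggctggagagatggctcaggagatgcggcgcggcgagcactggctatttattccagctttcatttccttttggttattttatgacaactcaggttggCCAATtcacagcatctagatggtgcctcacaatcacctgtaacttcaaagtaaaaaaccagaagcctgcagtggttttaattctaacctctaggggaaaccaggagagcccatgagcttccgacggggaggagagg
Fasn: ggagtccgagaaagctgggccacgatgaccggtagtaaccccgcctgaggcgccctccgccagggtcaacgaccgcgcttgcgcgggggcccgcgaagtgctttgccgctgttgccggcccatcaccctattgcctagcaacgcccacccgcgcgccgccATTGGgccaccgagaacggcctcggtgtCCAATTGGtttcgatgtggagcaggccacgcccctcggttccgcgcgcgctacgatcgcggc

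RefSeq windows were matched by symbol for 24 of the 31 members, giving 28 promoters. CCAAT on either strand occurred in 16 of 18 promoters of sterol genes (88.9%) and 4 of 10 promoters of fatty acid genes (40.0%), where 33.8% of all 32851 promoters and 35.7% of the promoters of genes tested held it. The Sp1 letters GGGCGG on either strand occurred in 88.9% of sterol promoters and 5 of 10 fatty acid promoters, against 32.7% of all promoters and 56.8% of those of genes tested. The E-box CACGTG was in 16.7% of sterol promoters and none of the fatty acid promoters, against 6.02% of all promoters and 8.29% of those of genes tested; it reads the same on both strands. TCACNCCAC on either strand was in the Hmgcs1 promoter and in no other of the 24 members with a window. That makes 5.56% of sterol promoters, against 1.05% of all promoters and 1.03% of those of genes tested. A match of letters describes the sequence and shows no binding.

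The mevalonate arm turns acetyl-CoA into farnesyl diphosphate, and its 7 measured genes had a median log2 fold change of 0.19, which was -0.11 without random shRNA replicate 1 and 0.42 without replicate 2. Hmgcs1, which makes HMG-CoA, had 223 and 216 CPM with MERVL shRNA, against 139.5 and 255 CPM with random shRNA, and differed by 0.15 ± 0.28 on the log2 scale (SE from edgeR; adjusted p = 0.858). Idi1, the isopentenyl diphosphate isomerase, had 118 and 109 CPM with MERVL shRNA, against 67.7 and 121 CPM with random shRNA (log2 fold change 0.27 ± 0.27). Pmvk, the phosphomevalonate kinase, had 39.5 and 42.5 CPM with MERVL shRNA, against 27.0 and 44.2 CPM with random shRNA (0.20 ± 0.24). For all of these the MERVL shRNA pair sat inside the random shRNA pair, close to replicate 2. Mvk, the mevalonate kinase, had 29.3 and 30.1 CPM with MERVL shRNA, against 22.5 and 26.7 CPM with random shRNA (0.28 ± 0.16), and its groups did not overlap. Mvd, which decarboxylates mevalonate diphosphate, also had groups that did not overlap but in the other order, with 28.5 and 29.2 CPM with MERVL shRNA, against 31.1 and 40.8 CPM with random shRNA (-0.31 ± 0.18). Acat2, the thiolase of the first step, and Fdps, the farnesyl diphosphate synthase, had log2 fold changes of 0.19 ± 0.16 and -0.13 ± 0.19. Without random shRNA replicate 1 the log2 fold changes were -0.21 for Hmgcs1, -0.08 for Idi1, -0.11 for Pmvk and -0.35 for Fdps. They were -0.49 for Mvd, 0.16 for Mvk and 0.04 for Acat2. In the fit without random shRNA replicate 2, they were 0.67, 0.76 and 0.62 for Hmgcs1, Idi1 and Pmvk. For Mvk, Acat2, Fdps and Mvd they were 0.42, 0.38, 0.16 and -0.09. These fits hold 1 random shRNA library and so none of that group's spread. Gene by gene, their fold changes are therefore given without tests. Calls of members from these fits appear only further on, beside the share of all features called.

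The steps that lead to squalene and on to cholesterol had 11 measured genes with a median log2 fold change of 0.17, which was -0.09 without random shRNA replicate 1 and 0.47 without replicate 2. The methylsterol monooxygenase gene Msmo1, which acts in the removal of methyl groups from the sterol ring, varied most among all members. It had 230.0 and 217 CPM with MERVL shRNA, against 73.1 and 258 CPM with random shRNA, and its log2 fold change was 0.43 ± 0.51 (adjusted p = 0.774 in edgeR). Its mean was 224 ± 9.09 CPM with MERVL shRNA and 166 ± 131 CPM with random shRNA (SD, n = 2 each), with random shRNA replicate 1 alone at the low end. With random shRNA replicate 1 left out, its log2 fold change was -0.20, and without random shRNA replicate 2 it was 1.63.

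Cyp51, the lanosterol demethylase, had 86.2 and 91.3 CPM with MERVL shRNA, against 54.7 and 112 CPM with random shRNA (log2 fold change 0.10 ± 0.31). Fdft1, the squalene synthase, had 113 and 116 CPM with MERVL shRNA, against 71.4 and 122 CPM with random shRNA (0.24 ± 0.25). Sqle, the squalene epoxidase and a known control point, had 65.2 and 68.0 CPM with MERVL shRNA, against 57.5 and 79.2 CPM with random shRNA (-0.03 ± 0.18, adjusted p = 0.955). These MERVL shRNA values again fell inside the random shRNA range. Lss, the lanosterol synthase, did so too, with 51.9 and 51.4 CPM with MERVL shRNA, against 38.6 and 57.0 CPM with random shRNA (0.11 ± 0.20). When random shRNA replicate 1 was left out, the log2 fold changes were -0.33 for Cyp51, -0.09 for Fdft1, -0.24 for Sqle and -0.14 for Lss. Without random shRNA replicate 2 they were 0.71, 0.70, 0.23 and 0.44 in the same order.

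The groups did not overlap for 5 of these 11 genes, 4 higher and 1 lower, where 23.0% of all genes were higher and 21.8% lower in that way. Tm7sf2, a sterol reductase, had 24.2 and 24.3 CPM with MERVL shRNA, against 12.4 and 21.7 CPM with random shRNA, at 0.52 ± 0.27 the highest log2 fold change of the branch (adjusted p = 0.466). Lbr, which has the same reductase activity and also anchors lamin B at the nuclear envelope, had 169 and 177 CPM with MERVL shRNA, against 127 and 159 CPM with random shRNA (0.28 ± 0.16). Nsdhl, a dehydrogenase that works with Msmo1, had 35.2 and 37.5 CPM with MERVL shRNA, against 22.7 and 34.7 CPM with random shRNA (0.34 ± 0.22). In all 3 genes random shRNA replicate 2 came close to the MERVL shRNA libraries and replicate 1 lay well below. Hsd17b7, the ketosteroid reductase of the same step, had 20.6 and 17.7 CPM with MERVL shRNA, against 17.2 and 16.8 CPM with random shRNA (0.17 ± 0.17). Ebp, an isomerase that shifts a double bond of the ring, was the one of these 5 that lay lower, with 19.0 and 23.2 CPM with MERVL shRNA, against 23.3 and 26.5 CPM with random shRNA (-0.24 ± 0.18). Sc5d, a sterol desaturase, overlapped between groups (0.15 ± 0.23). In the fit without random shRNA replicate 1, the log2 fold changes were 0.17 for Tm7sf2, 0.13 for Lbr and 0.07 for Nsdhl. They were 0.20 for Hsd17b7, -0.33 for Ebp and -0.09 for Sc5d. With random shRNA replicate 2 left out, they were 0.98 for Tm7sf2, 0.47 for Lbr and 0.69 for Nsdhl. Those of Hsd17b7, Ebp and Sc5d were then 0.17, -0.13 and 0.45.

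Of the sterol regulators, Srebf2 had 203 and 215 CPM with MERVL shRNA, against 152 and 207 CPM with random shRNA (log2 fold change 0.22 ± 0.18, adjusted p = 0.658). Insig1, which holds SCAP and SREBP in the endoplasmic reticulum and is itself an SREBP target, had 88.9 CPM in both MERVL shRNA libraries, against 56.0 and 128 CPM with random shRNA (-0.05 ± 0.35, adjusted p = 0.969). The MERVL shRNA libraries lay near the middle of that range. Stard4, a carrier that moves cholesterol between membranes, had 47.0 and 46.1 CPM with MERVL shRNA, against 49.96 and 79.6 CPM with random shRNA (-0.48 ± 0.23, adjusted p = 0.425), the lowest log2 fold change among the members. Without random shRNA replicate 1 the log2 fold changes of Srebf2, Insig1 and Stard4 were 0.02, -0.52 and -0.77. When random shRNA replicate 2 was left out, they were 0.48, 0.68 and -0.09 in the same order.

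In the fatty acid branch, the 4 genes that supply precursors and build the chain had log2 fold changes of -0.14 to 0.02. Their regulator Srebf1 had 85.3 and 84.6 CPM with MERVL shRNA, against 80.1 and 104 CPM with random shRNA (log2 fold change -0.12 ± 0.17, adjusted p = 0.814). Fasn, the fatty acid synthase, had 279.8 and 274 CPM with MERVL shRNA, against 356 and 248 CPM with random shRNA (-0.12 ± 0.20, adjusted p = 0.837). Acaca, the carboxylase that makes malonyl-CoA, had 49.97 and 55.7 CPM with MERVL shRNA, against 63.2 and 45.6 CPM with random shRNA (-0.05 ± 0.19). In Fasn and Acaca, unlike the sterol genes, random shRNA replicate 1 was the highest of the 4 libraries and replicate 2 the lowest. Acly, which makes cytosolic acetyl-CoA from citrate, had the same order, with 350.0 and 366 CPM with MERVL shRNA, against 374 and 332 CPM with random shRNA (0.02 ± 0.15). Me1, the malic enzyme that yields NADPH, had 32.2 and 36.01 CPM with MERVL shRNA, against 36.05 and 39.2 CPM with random shRNA (-0.14 ± 0.15), and its groups did not overlap, though their nearest libraries were almost level. Without random shRNA replicate 1 the log2 fold changes were 0.17 for Fasn, 0.22 for Acaca, 0.11 for Acly and -0.29 for Srebf1. In the fit without random shRNA replicate 2, they were -0.35 for Fasn, -0.24 for Acaca, -0.05 for Acly and 0.10 for Srebf1.

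The 5 elongation and desaturation genes had a median log2 fold change of 0.47, which was 0.23 without random shRNA replicate 1 and 0.72 without replicate 2, and held the 3 highest values of the branch. Scd1, a stearoyl-CoA desaturase that makes monounsaturated fatty acids, had 93.3 and 91.8 CPM with MERVL shRNA, against 39.6 and 82.8 CPM with random shRNA (0.60 ± 0.32, adjusted p = 0.472). Its relative Scd2 had 582 and 645 CPM with MERVL shRNA, against 349.9 and 515 CPM with random shRNA (0.51 ± 0.22, adjusted p = 0.374). Fads1, a desaturase of polyunsaturated fatty acids, had 82.8 CPM in both MERVL shRNA libraries, against 50.9 and 69.1 CPM with random shRNA (0.47 ± 0.18, unadjusted p = 0.0360). In all 3 the MERVL shRNA libraries lay above both random shRNA libraries, with random shRNA replicate 1 the lowest. Fads2, which acts before Fads1 in the same route, had 26.2 and 27.4 CPM with MERVL shRNA, against 23.7 and 29.3 CPM with random shRNA (0.02 ± 0.17). Elovl6, an elongase of saturated and monounsaturated chains, had 224 and 191 CPM with MERVL shRNA, against 204 and 178 CPM with random shRNA (0.12 ± 0.16). With random shRNA replicate 1 left out, the log2 fold changes of Scd1, Scd2 and Fads1 were 0.17, 0.26 and 0.27. When random shRNA replicate 2 was left out, they were 1.24, 0.83 and 0.72. Those of Fads2 were -0.13 and 0.19 in the same order of libraries left out.

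Levels of different genes were compared per exon length, on the TPM scale. That length covers all annotated exons of a gene together and can exceed that of a single transcript, so the order between genes depends on the annotation. On it Scd2 had the highest mean level of the members (255 with MERVL shRNA and 197 with random shRNA), followed by Acly (154 with MERVL shRNA and 169 with random shRNA) and Hmgcs1 (108 with MERVL shRNA and 107 with random shRNA). Acaca had the lowest, at 7.02 with MERVL shRNA and 8.06 with random shRNA, next to Hsd17b7 at 8.50 with MERVL shRNA and 8.37 with random shRNA.

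The second comparison set the random shRNA libraries against each other, 1 library a side, so it has no replicate check and no test. In the sterol branch 20 of 21 genes were lower in replicate 1 than in replicate 2, with a median log2 gap of -0.56, where 51.8% of all genes and 44.5% of the abundant ones defined next were lower. The exception was Hsd17b7 at 0.04, which was also lower in replicate 1 under upper quartile scaling. A gap of at least 1.5-fold downward was found in 10 sterol genes (47.6%), where 15.6% of all genes had one, and 5.41% of the 7794 genes whose mean level was at least that of the least abundant member, 18.1 CPM. No sterol gene had such a gap upward, where 9.86% of all genes and 6.39% of the abundant ones did. The distribution of gaps sets both branches beside these abundant genes.

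**Figure D2:**
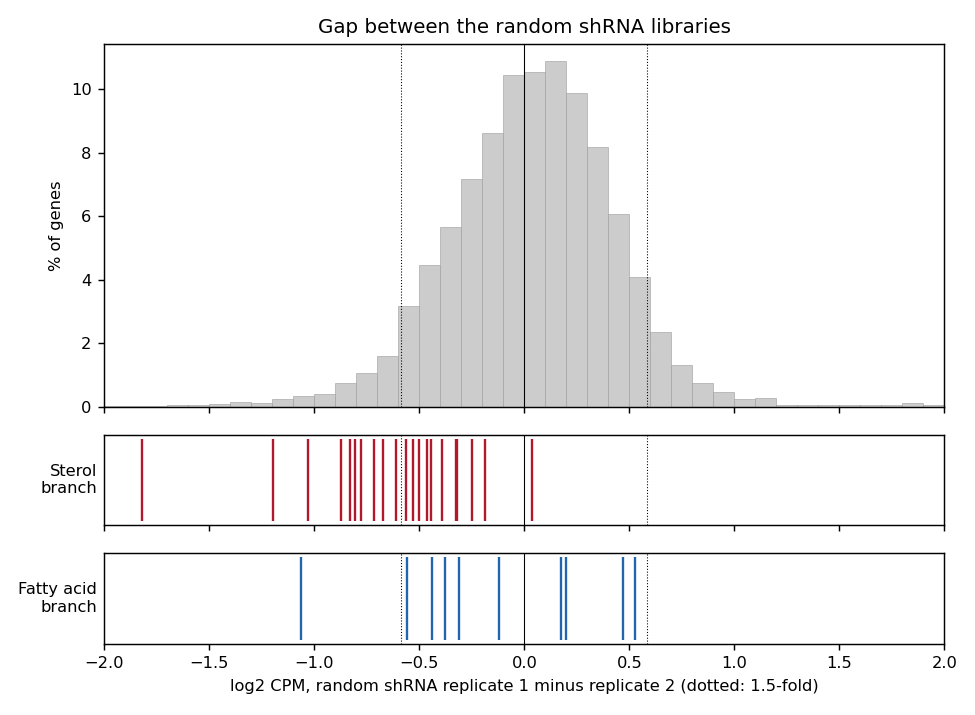
Distribution of the log2 gap in TMM-scaled CPM between the random shRNA libraries, replicate 1 minus replicate 2, with bars for the share of the 7794 genes at or above 18.1 CPM, and below them 1 line for each sterol gene and each fatty acid gene. The sterol lines sit almost all left of 0, down to -1.82 for Msmo1, while the fatty acid lines fall on both sides.

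Msmo1 had the widest gap, 3.54-fold lower in replicate 1 (log2 gap -1.82 ± 0.05, counting error), a gap that low being seen in 8 of the 7794 abundant genes. Insig1 was 2.29-fold lower, Cyp51 2.04-fold and Hmgcs1 1.83-fold. Idi1, Tm7sf2, Fdft1, Pmvk, Stard4 and Nsdhl followed with log2 gaps of -0.83 to -0.61. All 7 measured mevalonate genes and the 3 listed sterol regulators, Srebf2, Insig1 and Stard4, were on the low side. The 9 genes of the SREBP processing list were split, with 5 lower and 4 higher in replicate 1 and a median log2 gap of -0.04. Among them Scap and the protease gene Mbtps1 were higher in replicate 1 (log2 gaps 0.46 and 0.30), and Mbtps2 was lower (-0.47). Just inside the 1.5-fold limit was Nsdhl at 1.53-fold, and just outside were Lss at 1.48-fold and Scd2 at 1.47-fold.

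The fatty acid branch was split, with a median log2 gap of -0.22, 6 genes lower and 4 higher in replicate 1. Scd1 was the only one past 1.5-fold, 2.09-fold lower in replicate 1. Scd2, Fads1, Fads2, Srebf1 and Me1 were lower by less. Fasn was 1.44-fold higher in replicate 1, Acaca 1.39-fold, Elovl6 1.15-fold and Acly 1.13-fold. Acly, Acaca, Fasn and Elovl6 thus lay on one side of 0, and the 4 desaturases on the other. The MERVL shRNA libraries differed far less from each other, and no member was past 1.5-fold. Log2 gaps, replicate 1 minus replicate 2, ran from -0.28 to 0.25 in the sterol branch and -0.16 to 0.23 in the fatty acid branch. In that pair 1359 of all 15735 genes and 45 of the 7794 abundant ones were past 1.5-fold. Narrow gaps there were thus not particular to the members.

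Between the random shRNA libraries, MERVL and the 2-cell-like markers given above were higher in replicate 1. Summed neural markers were also higher in replicate 1 (166 CPM, against 98.2 CPM in replicate 2). Of 6 tested neural markers 4 were higher past 1.5-fold, where 9.86% of all genes were. Summed trophectoderm markers were lower in replicate 1 (43.4 CPM, against 73.3 CPM in replicate 2). All 5 tested ones were lower, 4 of them past 1.5-fold, where 15.6% of all genes were. The 8 pluripotency markers were split, with 3 lower and 5 higher in replicate 1. Past 1.5-fold were Tdgf1 (820 CPM, against 1974 CPM in replicate 2) and, in the other direction, Nanog (1266 CPM, against 803 CPM). In the MERVL shRNA pair, MERVL was at 1152 and 555 CPM and the 2-cell-like markers at 302 and 168 CPM. The sterol sums of that pair were 1822 and 1839 CPM. With 1 library a side, all that differs goes along with the gap, and the part of these in it was not tested. Across 7765 abundant genes with an annotated exon length, Spearman's rho of the gap was 0.13 with exon length and 0.10 with mean CPM, as a description of 2 libraries. The median exon length was 4403 bases in the sterol branch, 5372 in the fatty acid branch and 4570 over those genes.

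The sign of the sterol median depended on which random shRNA library was used, while the fatty acid median was positive either way (0.17 without replicate 1 and 0.07 without replicate 2). Without random shRNA replicate 1 the sterol median was -0.11, with 7 genes positive and 14 negative. Then 5 sterol genes were called lower (Cyp51, Fdps, Mvd, Insig1 and Stard4) and none higher, where edgeR called 7.28% of features lower and 6.77% higher, and no fatty acid gene was called. In the fit without random shRNA replicate 2, the sterol median was 0.47, with 18 positive and 3 negative, and 15 sterol genes were called higher and none lower, where edgeR called 14.9% of features higher and 17.4% lower. In the fatty acid branch Scd1, Scd2 and Fads1 were then called higher and Fasn lower. In these fits the lone random shRNA library is assumed to vary like the MERVL shRNA pair, so their p-values say nothing of the spread seen between the random shRNA libraries. In the fits that left out one or the other MERVL shRNA library, no member was called. The plot of fold changes with and without each random shRNA library shows the shift gene by gene.

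**Figure D3:**
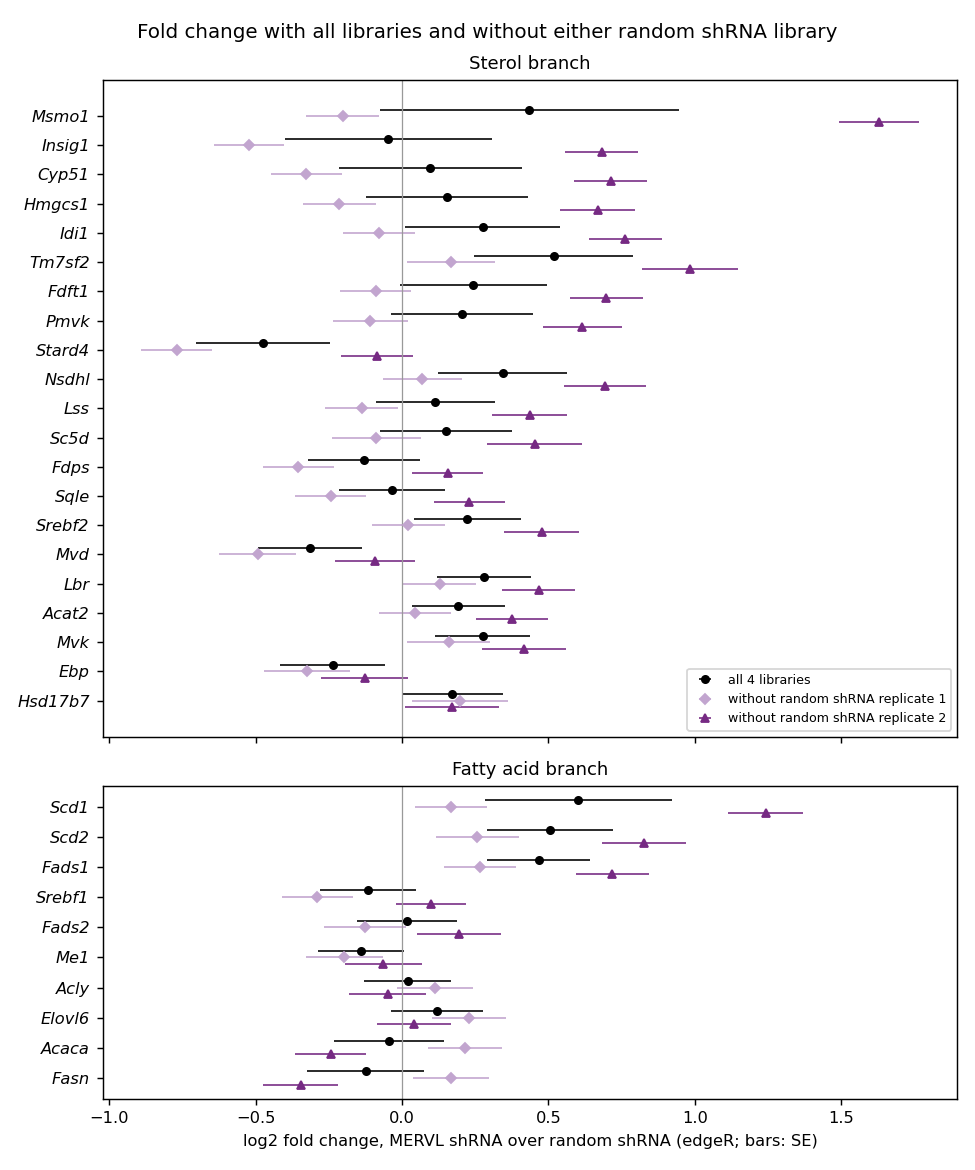
Log2 fold change of each gene, MERVL shRNA over random shRNA, with all 4 libraries (black circles), without random shRNA replicate 1 (pale diamonds) and without random shRNA replicate 2 (dark triangles), from edgeR, with bars for the SE. Msmo1 lies at 0.43, -0.20 and 1.63 in these fits, while Hsd17b7 lies at 0.17, 0.20 and 0.17.

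The authors also deposited normalized scores, and in them the gap was nearly gone. Msmo1 had scores of 3067 and 3032 with MERVL shRNA, against 2151 and 2037 with random shRNA. Insig1 had 1217 and 1254 with MERVL shRNA, against 1265 and 1271 with random shRNA. The widest log2 score gap of a member between the random shRNA libraries was 0.084 in size, and in 20 of 31 members its sign was opposite to that in the counts. The median size of the gap over 15735 genes was 0.03 in the scores and 0.33 in the counts. With limma on log2(score + 1), 8 sterol genes were called higher (Hmgcs1, Mvk, Idi1, Fdft1, Tm7sf2, Lbr, Msmo1 and Nsdhl) and 2 lower (Mvd and Stard4), and in the fatty acid branch Scd1, Scd2 and Fads1 were called higher and Srebf1 lower. Of all features with a score 13.1% were called higher and 14.5% lower in this test. Msmo1 had a log2 fold change of 0.54 and Insig1 one of -0.04 on this scale. The labels do not state how the scores were computed, and their tests see almost none of the spread between the random shRNA libraries that the counts hold.

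**Figure D4:**
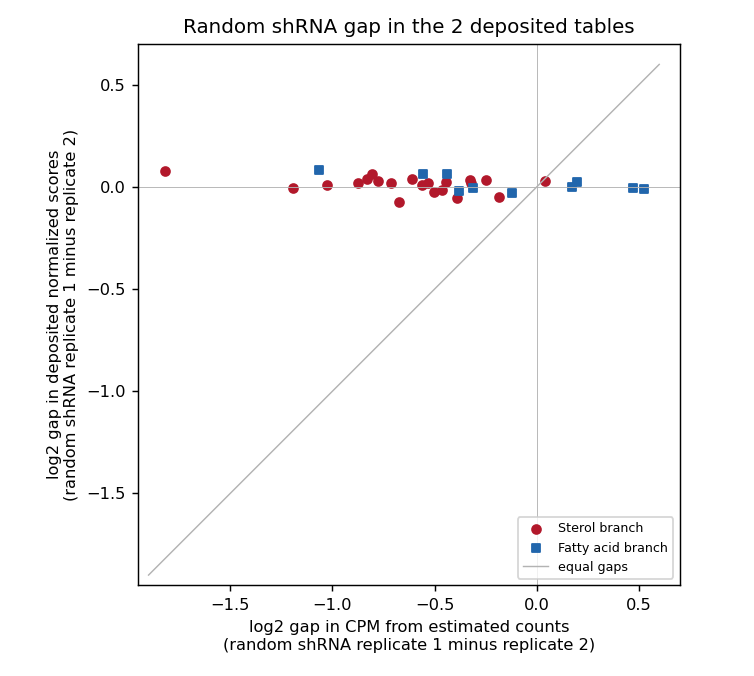
Log2 gap between the random shRNA libraries, replicate 1 minus replicate 2, for each of the 31 genes in the estimated counts and in the deposited scores. The count gaps run from -1.82 to 0.53, and the score gaps reach at most 0.084 in size.

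Other genes of lipid metabolism were taken from 5 lists of sterol synthesis, SREBP processing, sterol uptake and efflux, further fatty acid genes and fatty acid oxidation. None of their members tested passed in edgeR with all 4 libraries, filtered and scaled as for the members, and 0.00612% of features were called higher and 0.0% lower. With no filter on low counts edgeR called Apoe and Abca1 higher and Acadl lower, where 0.991% of features were called higher and 3.76% lower. With a replicate block edgeR called Apoe higher and Acadl lower, where 0.673% of features were called higher and 3.84% lower. DESeq2 also called Apoe higher and Acadl lower, where 0.397% were called higher and 0.96% lower, and limma-voom called none. The 8 further sterol synthesis genes had a median log2 fold change of -0.02.

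The 9 SREBP processing genes had a median log2 fold change of 0.02. In that list Sec23a, a coat protein of vesicles that leave the endoplasmic reticulum, was the only one at an unadjusted p under 0.05, with 98.3 and 100.02 CPM with MERVL shRNA, against 65.9 and 77.8 CPM with random shRNA (0.46 ± 0.14, adjusted p = 0.329). The 12 uptake and efflux genes had a median of -0.01, with Apoe, a lipid carrier protein, at 811 and 839 CPM with MERVL shRNA, against 395 and 490.1 CPM with random shRNA (0.90 ± 0.17, adjusted p = 0.290). Abca1, a cholesterol exporter, had 19.1 and 18.9 CPM with MERVL shRNA, against 13.3 and 7.55 CPM with random shRNA (0.86 ± 0.28). For Apoe and Abca1 both MERVL shRNA libraries lay above both random shRNA libraries. Lipa, the lysosomal lipase that frees cholesterol from its esters, had 11.2 and 10.8 CPM with MERVL shRNA, against 16.7 and 16.5 CPM with random shRNA (-0.59 ± 0.18). With random shRNA replicate 1 left out, the log2 fold changes of Sec23a, Apoe, Abca1 and Lipa were 0.35, 0.76, 1.34 and -0.58. When random shRNA replicate 2 was left out, they were 0.60, 1.08, 0.53 and -0.58 in the same order. These 4 genes were chosen by their unadjusted p in the fit with all 4 libraries, so neither their group order nor the refits are a separate check.

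Of the further fatty acid genes, 20 were tested, with a median log2 fold change of 0.02. Hsd17b12, a reductase of very long chain fatty acid elongation, had 78.9 and 81.4 CPM with MERVL shRNA, against 114 and 121 CPM with random shRNA (-0.55 ± 0.13, adjusted p = 0.329). Mlxipl, the carbohydrate-responsive transcription factor ChREBP, had 3.71 and 2.20 CPM with MERVL shRNA, against 5.17 and 7.71 CPM with random shRNA (-1.11 ± 0.39). The 10 fatty acid oxidation genes tested had a median of 0.24. Acadl, a long chain acyl-CoA dehydrogenase, had 8.36 and 8.37 CPM with MERVL shRNA, against 16.7 and 18.4 CPM with random shRNA (-1.07 ± 0.19, adjusted p = 0.283), whereas Hadhb, a subunit of the trifunctional protein, had 83.9 and 92.5 CPM with MERVL shRNA, against 70.4 and 65.8 CPM with random shRNA (0.37 ± 0.14). In these 4 genes the groups did not overlap, where both MERVL shRNA libraries lay above for 23.0% of all genes and below for 21.8%. Without random shRNA replicate 1 the log2 fold changes of Hsd17b12, Mlxipl, Acadl and Hadhb were -0.59, -1.36, -1.13 and 0.43. Without random shRNA replicate 2 they were -0.49, -0.78, -0.98 and 0.34. These 4 genes were also chosen by their unadjusted p in the fit with all 4 libraries, so neither the lack of overlap nor the refits are a separate check.

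Some counts could hold reads of other genes. In 23 of the 31 members an estimated count was not whole in some library, as where reads are shared out among several places. Acat2 has the close copy Acat3, with 56.1 and 59.6 CPM with MERVL shRNA, against 55.7 and 62.8 CPM with random shRNA, while Scd3 and Scd4 were at most 2.35 CPM. The 9 such relatives of members that were tested had a median log2 fold change of -0.03, and none passed. Fdft1 overlaps Ctsb, Cyp51 overlaps Akap9 and Srebf1 overlaps Rai1 on the opposite strand, and Tm7sf2 overlaps Vps51 on the same strand. The sources used here do not state whether counting used strand, so the values of these genes are uncertain to that extent.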

How the data were processed

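RNA-seq of 2 MERVL shRNA and 2 random shRNA libraries was analysed, grouped by sample title. The submitters' processing notes name HISAT2, Trim Galore and build mm10; the sources used here give no versions, counting program or strand setting. The authors deposited estimated counts for 45773 features (43496 Ensembl genes and 2277 MERVL copies), of which 19.1% to 20.8% per library were not whole, and a normalized score for 17823 features. Estimated counts were rounded. The edgeR 4.0.16 quasi-likelihood test (R 4.3.3, TMM scaling, filterByExpr, no replicate term, 2-sided) was fitted to 16353 features, of which 15735 were genes. Benjamini-Hochberg adjustment ran over all of them, with a threshold of 0.05, and SEs were derived from F. CPM values are TMM-scaled except the summed MERVL copies. Scores were tested with limma 3.58.1 on log2(score + 1) for a mean of at least 1. The alternatives were DESeq2 1.42.0, limma-voom, other scalings and filters, a replicate block and fits that leave out 1 library each. Tests were checked on simulated data. Values are given for members whose groups did not overlap or whose random shRNA gap passed 1.5-fold, for 8 set in any case, and for up to 4 genes of each other list with the smallest p; values of further members were added after they were seen. Some results are not reported here. The members and lists were chosen with earlier results of these data known. Positions are from GENCODE M21 on GRCm38.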

Additional observations from a re-analysis of the deposited data

How the results depend on the processing

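The count of features called by edgeR, 1 with all libraries, was 1293 with no filter, 222 with DESeq2, 0 with limma-voom, 4919 and 4845 with the deposited scores at added values of 1 and 0.25, 738 with a replicate block and 2 to 5542 when 1 library was left out. The sterol median ran from -0.11 to 0.47 when 1 library was left out, and the fatty acid median from -0.0004 to 0.17. With total counts only the fatty acid median was -0.0403. The median gap of the random shRNA pair was -0.60 (sterol) and -0.26 (fatty acid) with upper quartile scaling, and 0.0197 (sterol) and -0.0039 (fatty acid) in the scores. Insig1 turned to 0.079 with limma-voom and 0.067 with the replicate block, Acly to -0.039 with total counts only, and Fads2 to -0.042 with total counts only and -0.021 in the scores at either added value.

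When 1 library was left out, log2 fold changes ran from -0.21 to 0.67 for Hmgcs1, -0.11 to 0.62 for Pmvk, -0.078 to 0.76 for Idi1, -0.35 to 0.16 for Fdps, -0.09 to 0.70 for Fdft1, -0.24 to 0.23 for Sqle, -0.14 to 0.44 for Lss and -0.33 to 0.71 for Cyp51. They ran from -0.20 to 1.63 for Msmo1, -0.088 to 0.45 for Sc5d, -0.52 to 0.68 for Insig1, -0.29 to 0.10 for Srebf1, -0.049 to 0.11 for Acly, -0.24 to 0.22 for Acaca, -0.35 to 0.17 for Fasn and -0.13 to 0.19 for Fads2. With no filter Scd1 was called higher. The cause of these shifts was not tested.

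Nothing in the labels ties libraries of the same number together, and their deviations had a correlation of 0.25 over 16353 features, with 2 pairs. The replicate block called 110 features higher and 628 lower and no member. With 2 libraries a group and 11628887 counts in the smallest, small differences were not detectable, and large ones could also fail to pass. The 7 tested markers of the 2-cell-like state had log2 fold changes of -5.56 to -1.86. None of them passed in edgeR with all 4 libraries (adjusted p = 0.316 to 0.329). A member that did not pass is therefore not shown to be unchanged.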
